A study of Mus musculus with 5 samples.

Results

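The cytosolic ribosomal protein genes encode the protein part of the ribosome, and their transcripts were followed here in whole mouse lung. Members were taken by symbol, as every gene whose symbol starts with Rpl or Rps and a digit, and Rpsa, with the S6 kinase genes (Rps6k) left out. Each member also had a mean log2 CPM no lower than 3 in each of the authors' 4 deposited comparison tables (CPM, a gene's reads scaled to a common library total). Together these criteria gave 73 of the 21590 genes listed, and 10562 genes of any kind passed the same minimum. Of the 73, 66 were ribosomal proteins proper, 38 of the large subunit and 28 of the small. The others were the paralogs Rpl22l1, Rpl7l1, Rps27l and Rps4y2, the pseudogenes Rps15a-ps4 and Rps15a-ps6, and Rps19bp1, which encodes a protein that binds ribosomal protein S19 and not a ribosomal protein. A further 14 genes with such symbols lay below the minimum. They were Rpl9, Rpl23a, Rpl26, Rpl30, Rpl34, Rps13, Rps27a and Rps28, with paralogs and pseudogenes, and they enter no count of members. The members nearest to the minimum were Rpl35, Rps19bp1 and Rpl3, with lowest log2 CPM of 3.17, 3.18 and 3.29, and the nearest genes outside were Rpl9, Rps13 and Rps27a at 2.28, 2.23 and 2.12.

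The mice were on a mixed background of 129S6, C57BL/6 and BALB/c and were either wild type (WT) or lacked Cldn4, the gene of the tight junction protein claudin-4 (KO). Their age is not given in the sources used here. Lungs came from unventilated mice (WT_noVILI, KO_noVILI) or from mice ventilated for 2 h at 40 cmH2O, a pressure that injures the lung (ventilator-induced lung injury, VILI). The ventilated groups were wild type (WT_VILI), knockouts injured about as much as wild type (KO_VILIlow) and knockouts injured more (KO_VILIhigh), so the last pair was sorted by outcome. The design text gives duplicates for each group, while the values at hand are 4 sets of comparisons with no values per library. Levels below are therefore group levels rebuilt from them, with no spread over animals. The targeted gene had rebuilt levels of 9.18 and 140 CPM in unventilated and ventilated wild type lungs and of 0.0212 to 0.140 CPM in the knockout groups. The female-specific transcript Xist stood at 890 and 505 CPM in the unventilated wild type and knockout groups and at 2.56 to 5.93 CPM in the ventilated groups, and the Y-linked Ddx3y at 0.166 and 0.421 CPM against 90.7 to 114 CPM. Sex and ventilation therefore cannot be told apart in any comparison of ventilated with unventilated lungs.

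A ribosome has a small subunit, which reads the messenger RNA, and a large subunit, which joins the amino acids. Its proteins are needed in matched amounts, and their genes are transcribed together at high level in nearly all cells. The messenger RNAs of ribosomal proteins and of several translation factors begin with an uninterrupted run of pyrimidines, the 5' terminal oligopyrimidine (TOP) tract, through which mTOR and LARP1 control their translation and stability. Because these messages are abundant in every lung cell type, their level in bulk tissue has no single cellular source, and fewer cells of a type cannot be told apart from less RNA per cell.

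Pyrimidine runs near annotated start sites are a trait that the symbol rule did not use. The search took a run anywhere in a window. A run found need not be a TOP tract, which begins at the first base of the message. Windows around RefSeq start sites (GRCm38.p6) were at hand for 54 of the 73 members. A run of at least 8 C or T on the transcribed-sense strand, within the 80 bases centred on an annotated start, was present in 42 of these 54 genes (77.8 percent). The same search found one in 2663 of 8357 other genes above the expression minimum (31.9 percent) and in 8805 of all 27025 RefSeq genes with a window (32.6 percent). On the opposite strand the run was found in 13 of the 54 members (24.1 percent) and in 34.7 percent of the other expressed genes. The longest run had a median of 10 bases in members and 6 in the other expressed genes. Each line below gives 30 bases read 5' to 3' on the sense strand, with the longest pyrimidine run in capitals. The first 5 genes are among those called lower in ventilated wild type lungs. Rps6, Rpl11 and Rpl27a show a run in members that were not called there. Rps2 and Rps3a1 are the 2 members called lower in the knockout.
Rpl13a (chr7:45128722-45128751, minus strand): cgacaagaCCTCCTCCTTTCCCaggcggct
Rpl4 (chr9:64173361-64173390, plus strand): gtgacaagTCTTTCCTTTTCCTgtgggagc
Rps15 (chr10:80292446-80292475, plus strand): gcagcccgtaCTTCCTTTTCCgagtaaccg
Rps24 (chr14:24490710-24490739, plus strand): gagcggTCCTCTTTTCCTCCTCTCCagctc
Rps23 (chr13:90923135-90923164, plus strand): tgccttgtgggTCCTTCCTgcacctcctct
Rps6 (chr4:86857349-86857378, minus strand): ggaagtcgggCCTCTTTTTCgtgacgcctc
Rpl11 (chr4:136053358-136053387, minus strand): ccggaagTCTCCCTCTCTCTTCCTgttctc
Rpl27a (chr7:109519186-109519215, plus strand): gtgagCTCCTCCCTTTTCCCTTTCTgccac
Rps2 (chr17:24720078-24720107, plus strand): actataaattgTCCCTTCCgcggcgcctcc
Rps3a1 (chr3:86142623-86142652, minus strand): acgtagacggcgCTCCCCgcccggctcgcg
The run is 14 bases long in Rpl13a and Rpl4, 19 in Rps24 and 20 in Rpl27a. Counted from the annotated start, its first base lies at -37 in Rps24, -18 in Rpl4 and -4 in Rpl27a. It lies at -1 in Rps6, 2 in Rpl13a, 13 in Rpl11, 24 in Rps23, 25 in Rps15 and 26 in Rps2. The run is 8 bases long in both Rps23 and Rps2, and in Rps3a1 the longest run is 6 bases, below the length counted. Median log2 fold changes of members with and without a run were close: in WT_VILI against WT_noVILI they were -0.30 for the 42 genes with a run and -0.32 for the 12 without, and for the 19 members with no window -0.33.

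Ventilated wild type lungs had lower levels of ribosomal protein transcripts than unventilated wild type lungs. In the authors' deposited table, 13 of the 73 members fell at an adjusted p under 0.05 (17.8 percent) and 0 rose, against 6.55 percent lower and 7.56 percent higher among all 10562 genes above the minimum. The size was small and shared by most members. The median log2 fold change of members was -0.32, with quartiles of -0.37 and -0.19, against a median of -0.02 for the 10489 other genes. Of the members 70 had a fold change below 0 and 3 above, while 52.0 percent of the other genes were below 0. With Bonferroni adjustment 0 of the 13 passed. An unadjusted p under 0.05 was reached by 43 members, all lower, and by 13.2 percent of the other genes on the lower side.

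**Figure D1:**
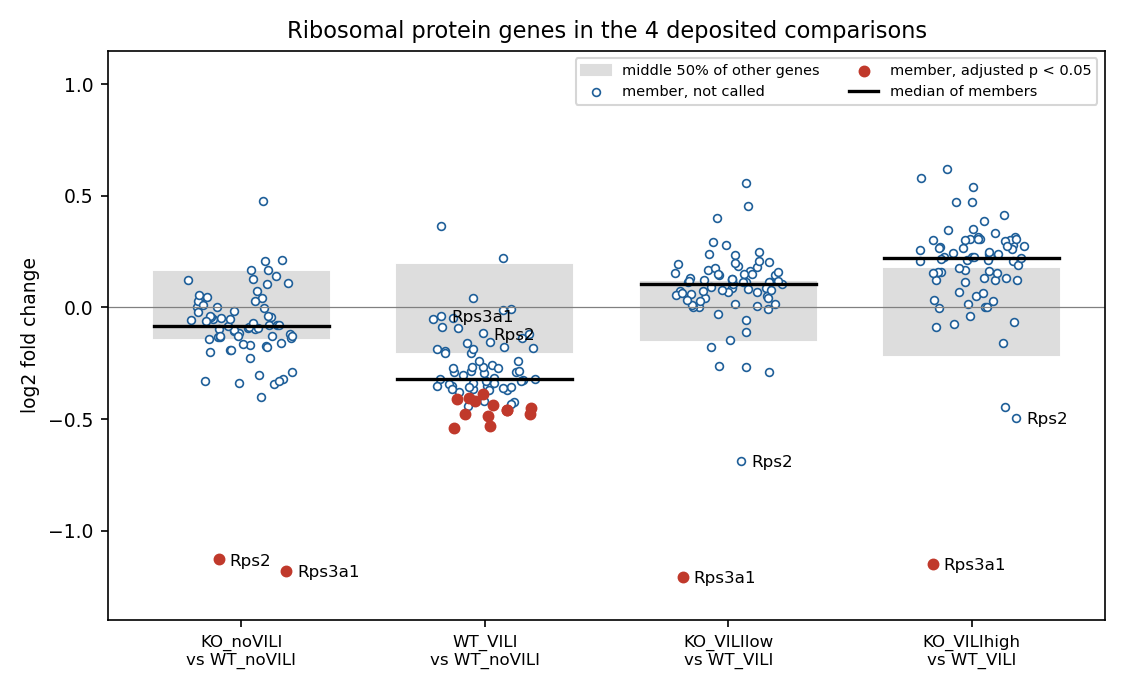
Log2 fold change (vertical axis) of the 73 members in each of the authors' 4 deposited comparisons, with points spread sideways for view only. Filled points have an adjusted p under 0.05. The black line is the members' median and the grey band spans the quartiles of the 10489 other genes. In WT_VILI against WT_noVILI 13 members are called lower. Rps3a1 is the lowest member in all 3 comparisons of knockout with wild type, with Rps2 close to it in KO_noVILI against WT_noVILI.

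The small subunit held 9 of the 13 called genes. Rps14, a protein of the small subunit's platform whose loss causes anaemia in a form of myelodysplasia, had 339 CPM in WT_noVILI and 240 CPM in WT_VILI, a log2 fold change of -0.53 with an approximate SE of 0.14 (deposited edgeR adjusted p = 0.00508). SEs here are approximate and rebuilt from the deposited p, and every fold change and edgeR adjusted p of a comparison other than the derived ones comes from the authors' deposited table. Rps15 went from 449 to 330 CPM (-0.48, deposited edgeR adjusted p = 0.00863) and Rps24 from 209 to 151 CPM (-0.48, deposited edgeR adjusted p = 0.0130). Rps3, which forms part of the messenger RNA entry channel, went from 417 to 311 CPM (-0.46, deposited edgeR adjusted p = 0.0109). WT_VILI was the lowest of the 5 groups for Rps14, Rps15 and Rps3, and for Rps24 it was level with KO_VILIhigh, also at 151 CPM. Rps9, which also lines the entry channel, fell likewise (-0.45, deposited edgeR adjusted p = 0.0173). Called small subunit genes also included Rps23 (-0.44) and Rpsa (-0.41), the latter of which also encodes the laminin receptor.

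Large subunit genes passed the test in 4 of 38 cases. Rpl13a, often used as a reference gene, had 249 CPM in WT_noVILI and 174 CPM in WT_VILI, a log2 fold change of -0.54 with an approximate SE of 0.15 (deposited edgeR adjusted p = 0.00424). It was the lowest member by fold change. Rpl4, the most abundant member, went from 793 to 578 CPM (-0.48, approximate SE 0.13, edgeR adjusted p = 0.00408). Rpl23 went from 188 to 138 CPM (-0.46) and Rpl8 from 483 to 377 CPM (-0.41). The median over ribosomal proteins proper was -0.31 in the large and -0.36 in the small subunit, a difference that was not tested. The median approximate SE of a single member was 0.15, which does not measure the spread of a median.

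Several members known for roles outside the ribosome or in disease had fold changes below 0 that did not pass the test. Rpl5 and Rpl11, which bind and restrain MDM2 when ribosome assembly fails, stood at -0.36 (deposited edgeR adjusted p = 0.105) and -0.20 (deposited edgeR adjusted p = 0.573) in the authors' deposited table. Rps6, the substrate of S6 kinase, was at -0.36 (deposited edgeR adjusted p = 0.123), and Rps19, the gene most often mutated in Diamond-Blackfan anaemia, at -0.28 (deposited edgeR adjusted p = 0.309). Rpl10a was at -0.18 and Rpl38, which is needed for translation of certain Hox messages in the embryo, at -0.36, both not called. Rpl22 was at -0.29 (approximate SE 0.14) and its paralog Rpl22l1 at -0.15 (approximate SE 0.17). Rps27 was at -0.09 (approximate SE 0.18) and its paralog Rps27l, a p53 target, at -0.24 (approximate SE 0.20). In both pairs the gap was less than the SE of the paralog. Rps27a, which encodes a ubiquitin fusion and lay below the expression minimum, had rebuilt levels of 4.71 and 4.83 CPM in WT_noVILI and WT_VILI. The 3 members above 0 were Rps12 at 0.37 (deposited edgeR adjusted p = 0.492), Rpl3 at 0.22 (deposited edgeR adjusted p = 0.865) and Rpl7l1 at 0.04.

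The fold change in ventilated wild type lungs followed a member's measured level, its mean log2 CPM. Across the 73 genes, which share the same libraries and are not replicates, Pearson's r between log2 fold change and mean log2 CPM was -0.73 and Spearman's rho -0.71. For the 10489 other genes the same values were 0.03 and 0.02. By mean log2 CPM, the median was -0.07 for the 12 members from 3 to 5, -0.24 for the 13 from 5 to 6, -0.32 for the 21 from 6 to 7, -0.35 for the 17 from 7 to 8 and -0.43 for the 10 above 8. The other genes had medians between -0.03 and -0.01 in the same 5 ranges. All 13 called members were among the 27 with a mean of at least 7. In none of the 3 tables against a knockout group did the members show such a trend, with rho between 0.00 and 0.14. Many ribosomal protein genes have near-identical processed pseudogenes, and RefSeq names at least 1 after 53 of the 73 members. How the authors counted reads that match several copies is not given in the sources used here, and the part of such reads in the levels or in this trend was not tested. Rebuilt levels in WT_noVILI ranged from 0.276 CPM for Rpl26, below the minimum, to 793 CPM for Rpl4. The measured level of a gene therefore need not be the abundance of its transcript.

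**Figure D2:**
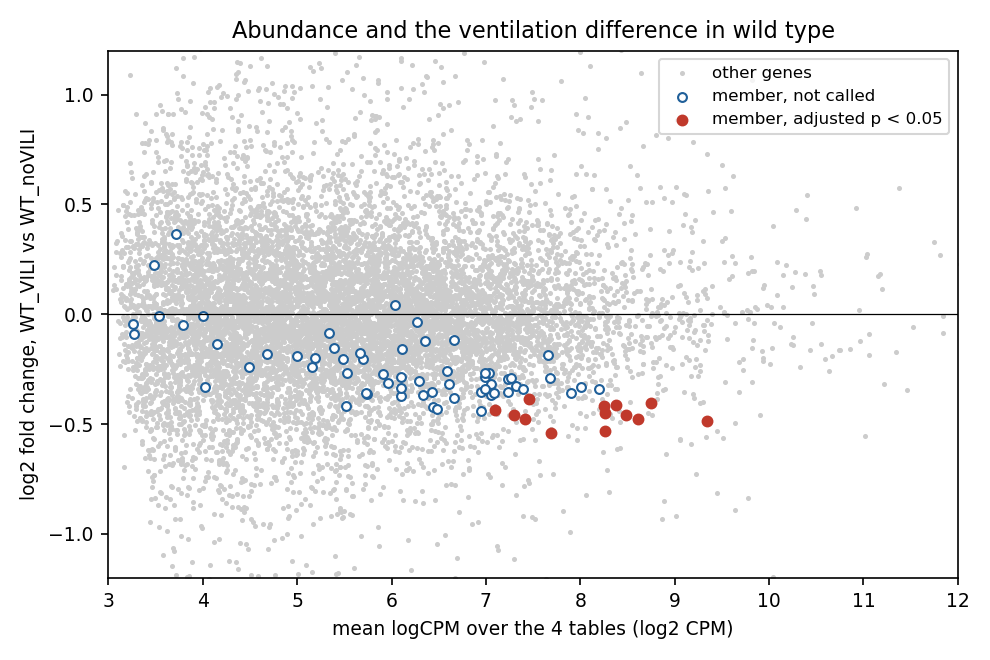
Log2 fold change in WT_VILI against WT_noVILI (vertical axis) against the mean log2 CPM over the 4 tables (horizontal axis) for the 73 members and 10489 other genes, of which 178 lie outside the axes. Members lie lower the higher their mean log2 CPM, and the called ones all have a mean of at least 7.

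The level in each group puts this difference in place. The summed level of the 73 members was 1.05 percent of counted reads in WT_noVILI, 0.976 percent in KO_noVILI, 0.825 percent in WT_VILI, 0.885 percent in KO_VILIlow and 0.946 percent in KO_VILIhigh. WT_VILI was the lowest group for 54 of the 73 members and WT_noVILI the highest for 48. The same shares over the other genes were not counted, and the members share the same libraries. Both subunits showed the same order of groups, from 0.557 to 0.442 percent for the large and from 0.471 to 0.365 percent for the small. A group rebuilt from different tables varied by a median of 0.03 log2 for WT_noVILI and 0.04 log2 for WT_VILI, with a highest range of 0.20 for Rps19bp1.

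**Figure D3:**
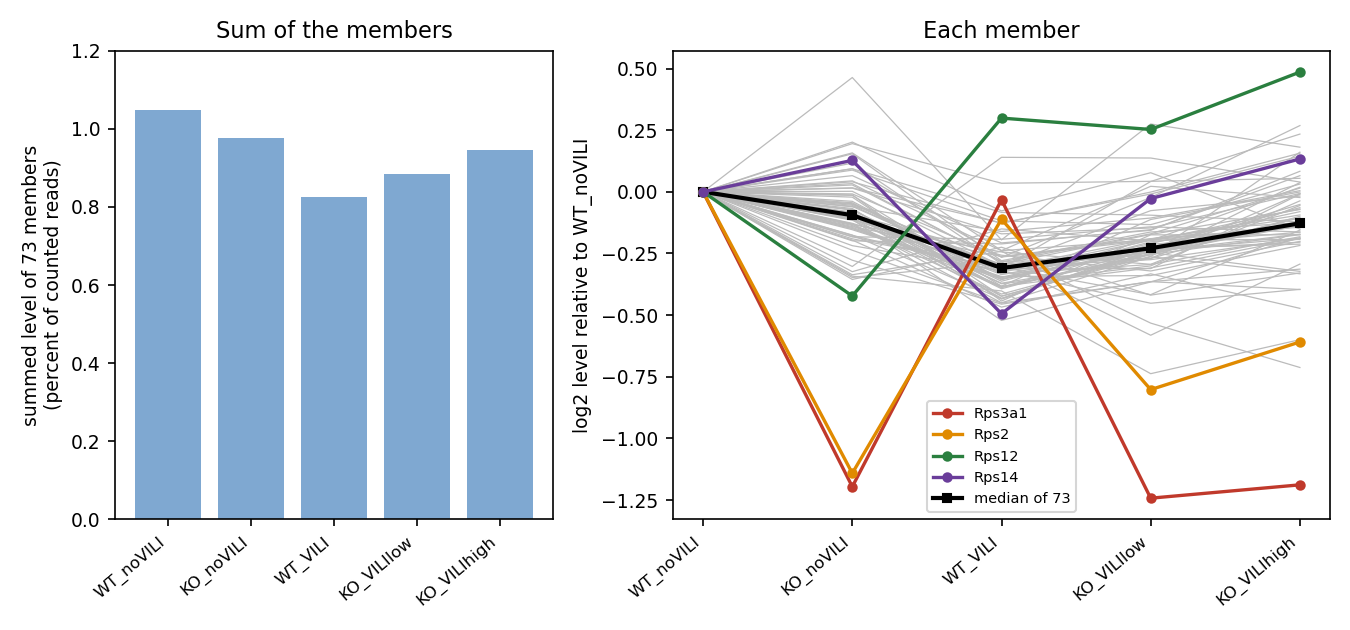
The left panel gives the summed rebuilt level of the 73 members as percent of counted reads in each group, and the right panel each member's log2 level relative to WT_noVILI; grey and coloured lines only join the values of 1 gene, the black line joins the medians of the 73, and the groups have no order. The sum is lowest in WT_VILI (0.825 percent), and Rps3a1 and Rps2 are low in the 3 knockout groups.

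In knockout lungs the medians of ventilated against unventilated groups were closer to 0. These contrasts were derived by adding the authors' log2 fold changes, with an approximate test. The median of members was -0.15 for KO_VILIlow against KO_noVILI and -0.04 for KO_VILIhigh against KO_noVILI, with 64 and 46 of 73 members below 0. Of the other genes 52.6 and 53.9 percent were below 0. A member's approximate SE had a median of 0.28 and 0.32, so the test could hardly call shifts of this size. The approximate test called 0 members in both, lower or higher, with 0 and 1 at an unadjusted p under 0.05. The background of genes above the minimum was 1.37 percent lower and 2.2 percent higher for the low-injury group, and 1.49 percent lower and 2.58 percent higher for the high-injury group. The 1 member was Rps12, at a derived log2 fold change of 0.99 with an approximate SE of 0.45 (adjusted p = 0.318 in the approximate test built on the authors' edgeR values). Rps12 stood at 11.8, 8.77, 14.5, 14.01 and 16.5 CPM in WT_noVILI, KO_noVILI, WT_VILI, KO_VILIlow and KO_VILIhigh, so its ventilated groups were all above its unventilated groups.

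Against ventilated wild type lungs, most members had values above 0 in both ventilated knockout groups, and none was called higher. In the authors' deposited table of KO_VILIlow against WT_VILI, the median of members was 0.11 and 62 of 73 were above 0, against -0.01 and 47.6 percent for other genes. By edgeR 0 members rose (background 0.71 percent) and 1 fell (background 0.369 percent). At an unadjusted p under 0.05 by edgeR, 1 was higher and 2 lower, against 3.4 and 3.05 percent of other genes. For KO_VILIhigh against WT_VILI the median was 0.22, with 62 above 0, against 47.7 percent of other genes. Here 0 were called higher by edgeR (background 1.48 percent) and 1 was called lower (background 0.672 percent). An unadjusted edgeR p under 0.05 was reached by 4 on the higher and 2 on the lower side, against 5.34 and 6.42 percent of other genes. Rps14 was the highest of the ribosomal proteins proper in both, at 0.45 (deposited edgeR adjusted p = 0.398) and 0.62 (deposited edgeR adjusted p = 0.191). Its level was 332 CPM in KO_VILIlow and 372 CPM in KO_VILIhigh, against 240 CPM in WT_VILI and 339 and 370 CPM in WT_noVILI and KO_noVILI. Only WT_VILI was low for this gene. Rps19bp1 was the highest of all members in KO_VILIlow at 0.56 (deposited edgeR adjusted p = 0.957). Rpl41, the shortest ribosomal protein, was at 0.54 in KO_VILIhigh (deposited edgeR adjusted p = 0.394). These 2 tables share WT_VILI with each other and with the table of wild type ventilation, so their shifts are not independent of the low level of WT_VILI.

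Whether the genotype difference itself changed with ventilation was tested as a difference of differences. Its median over members was 0.17 for the low-injury and 0.30 for the high-injury knockouts, with 64 and 67 of 73 above 0. Of the other genes 46.8 and 44.4 percent were above 0. Xist and Ddx3y set the unventilated groups apart from the ventilated ones. A change of the genotype difference with sex thus cannot be told apart from a change with ventilation. Both contrasts also hold WT_VILI, so they are not independent of its low level. The approximate test called 0 members in either direction for both, with 0 and 1 at an unadjusted p under 0.05. With a median approximate SE of 0.24 and 0.28 for a member, it could hardly call shifts of this size. Background calls were 0.161 percent lower and 0.748 percent higher for the low-injury contrast, and 0.331 percent lower and 1.21 percent higher for the high-injury one. High against low injury among the ventilated knockouts had a member median of 0.11 with 62 of 73 above 0, against 47.4 percent of other genes. A member's approximate SE had a median of 0.30 in that contrast. The approximate test again called 0 members, with 0 at an unadjusted p under 0.05, against backgrounds of 0 percent lower and 0.114 percent higher. Rps25 had the highest value there, 0.42 with an approximate SE of 0.29.

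Without ventilation, Rps3a1 and Rps2 stood far below all other members in knockout against wild type lungs. By the authors' deposited table, 2 of 73 members fell and 0 rose, against a background of 2.76 percent lower and 1.9 percent higher. At an unadjusted p under 0.05 by edgeR, 5 members were lower and 1, Rps19bp1, was higher. Among the other genes 9.05 percent were lower and 7.5 percent higher at that p. The share of called members was thus near the background, and the 2 genes are described for their size. Rps3a1, a small subunit protein gene (Entrez 20091, chromosome 3), had 99.97 CPM in unventilated wild type and 43.6 CPM in unventilated knockout lungs, a log2 fold change of -1.18 with an approximate SE of 0.17 (deposited edgeR adjusted p = 5.12e-09). Rps2, a small subunit protein gene at the messenger RNA entry (Entrez 16898, chromosome 17), stood at 126 and 57.3 CPM, a log2 fold change of -1.13 with an approximate SE of 0.17 (deposited edgeR adjusted p = 8.37e-09). By deposited p they ranked 43 and 45 of 21590 genes. The next lowest member, Rps12, was at -0.40 (deposited edgeR adjusted p = 0.630), followed by Rpl11 and Rps18, both at -0.34. Without Rps2 and Rps3a1 the median over 71 members was -0.08, and the highest member was Rps19bp1 at 0.48 (deposited edgeR adjusted p = 0.321).

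Rps3a1 had close to the same low level in every knockout group. Its level was 97.7 CPM in WT_VILI, 42.2 CPM in KO_VILIlow and 43.9 CPM in KO_VILIhigh. The difference from WT_VILI was -1.21 with an approximate SE of 0.23 in the low-injury group (deposited edgeR adjusted p = 5.55e-05) and -1.15 with an approximate SE of 0.27 in the high-injury group (deposited edgeR adjusted p = 0.00300). Rps3a1 was the only member called in these tables, and with Bonferroni adjustment the high-injury call was lost (0 members). The 2 wild type levels, 99.97 and 97.7 CPM, were above the 3 knockout levels. The share of all genes with such an order of group levels was not counted. Ventilated against unventilated, Rps3a1 was at -0.04 in wild type lungs and at a derived -0.06 and 0.00 in the low-injury and high-injury knockouts. The derived difference of differences for Rps3a1 was -0.03 and 0.03 for low and high injury, with approximate SEs of 0.29 and 0.32.

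Rps2 was also lowest in the knockout groups, with unequal size. Its level was 117 CPM in WT_VILI, 72.5 CPM in KO_VILIlow and 82.9 CPM in KO_VILIhigh. The differences from WT_VILI, -0.69 with an approximate SE of 0.23 (deposited edgeR adjusted p = 0.178) and -0.49 with an approximate SE of 0.22 (deposited edgeR adjusted p = 0.419), did not pass the threshold. The change in the genotype difference was 0.44 and 0.64 (approximate SEs 0.29 and 0.28, adjusted p = 1 and 0.382 in the approximate test), and no difference between ventilated and unventilated lungs was called. Wild type levels of Rps2 were 117 to 126 CPM and knockout levels 57.3 to 82.9 CPM, an order whose share over all genes was not counted.

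The comparison without ventilation and the comparison of KO_VILIlow with WT_VILI share no group, so members can be set against each other across them. Pearson's r over the 73 genes was 0.83 and Spearman's rho 0.44, and without Rps2 and Rps3a1 r was 0.60 and rho 0.40. For KO_VILIhigh the r of 0.73 became 0.44 without them, with a rho of 0.38. The other 10489 genes gave r of 0.33 and 0.24 and rho of 0.35 and 0.26, so values above 0 were common to genes at large. By rho, the members without Rps2 and Rps3a1 were near the other genes for KO_VILIlow, at 0.40 against 0.35. Rpl15 was among the members low in all 3, at -0.33, -0.26 and -0.45, none of which passed the test.

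**Figure D4:**
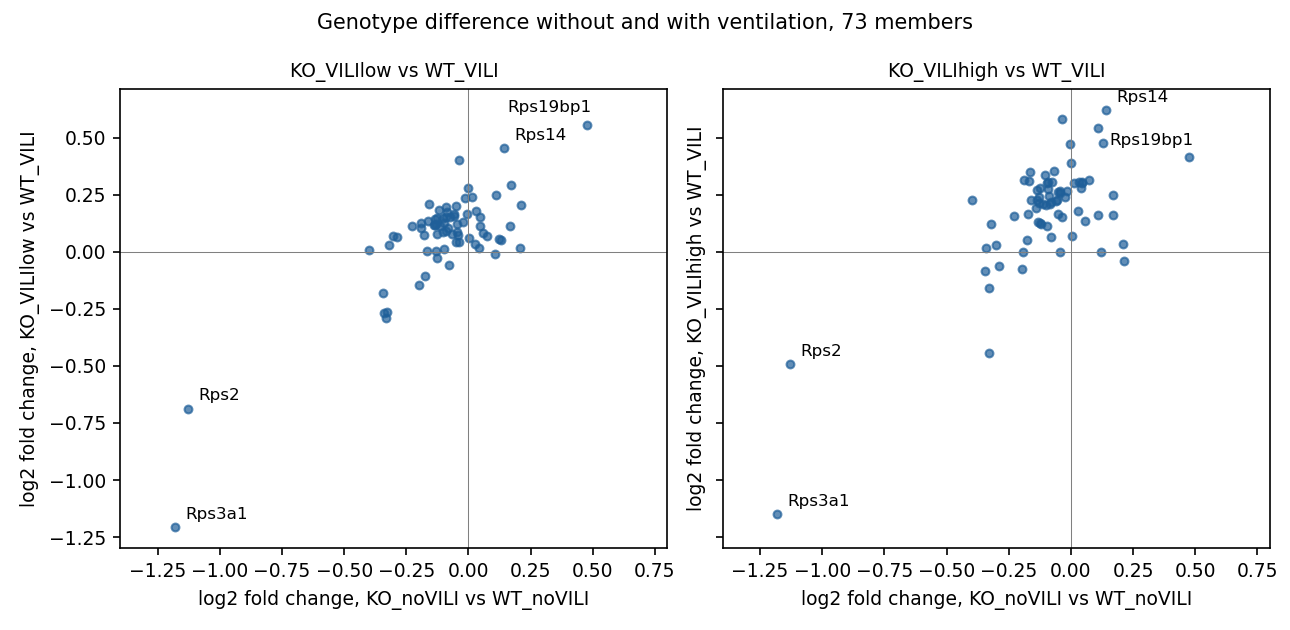
Log2 fold change of each of the 73 members in KO_noVILI against WT_noVILI (horizontal axis) and in KO_VILIlow or KO_VILIhigh against WT_VILI (vertical axes of the left and right panel). Rps3a1 lies near -1.2 on both axes of both panels, Rps2 near -1.1 on the horizontal axis and higher on the vertical ones, and the other 71 lie between -0.40 and 0.48 on the horizontal axis.

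Few genes beside Rps3a1 and Rps2 were called. Of the 5 expressed genes on each side of Rps3a1 in the RefSeq order, 0 of 10 were called in KO_noVILI against WT_noVILI, with log2 fold changes from -0.23 to 0.19. Beside Rps2, 1 of 10 was called, the neuropeptide gene Npw at -0.77 (deposited edgeR adjusted p = 0.0215), and the 10 had a median of 0.12. Of all genes above the minimum, 2.76 percent were called lower and 1.9 percent higher in that comparison. Against WT_VILI, Npw stood at -0.82 in KO_VILIlow (deposited edgeR adjusted p = 0.0621) and at -0.74 in KO_VILIhigh (deposited edgeR adjusted p = 0.206). Neither was called, and the 10 neighbours had a median of 0.10 in both. RefSeq names 12 pseudogenes after Rps2 and 2 after Rps3a (Rps3a2 and Rps3a3), so both values are uncertain as measures of a single gene.

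Members on the X chromosome were 4 of the 73. Rpl10, Rps4x, Rpl36a and Rpl39 stood at -0.29, -0.34, -0.27 and -0.05 in WT_VILI against WT_noVILI, none called, inside the range of the autosomal members.

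Genes of the same machinery outside the symbol rule were taken from lists chosen with earlier results known. A list of 6 stalk, fusion and associated protein genes, among them Rplp0, Rplp1, Rplp2, Fau and Gnb2l1 (RACK1), had a median of -0.33 in WT_VILI against WT_noVILI, and 2 of 6 fell, Fau at -0.45 (deposited edgeR adjusted p = 0.0227) and Rplp2 at -0.42 (deposited edgeR adjusted p = 0.0355). In the list of elongation factors and other TOP messages, 3 of the 23 genes above the minimum fell and 0 rose, with a median of -0.23: the initiation factor Eif4b at -0.63 (deposited edgeR adjusted p = 8.81e-05), Tpt1 at -0.46 and Eef1d at -0.44. Snhg1, a snoRNA host gene of this list below the minimum, rose by 0.90. By edgeR, 0 genes of either list were called in the knockout comparisons, at an adjusted p of 0.05.

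The lists of ribosome assembly genes and of initiation factors had medians above 0 in ventilated wild type lungs. Of 48 ribosome biogenesis genes above the minimum, 4 rose and 0 fell, with a median of 0.14: the nucleolar GTPase gene Gnl3 at 0.71, the subunit export adaptor Nmd3 at 0.79, Rrp12 at 0.97 and Ltv1 at 0.58. Of 29 initiation factors, 2 rose and 0 fell, Eif5 at 0.57 and Eif1a at 0.53, with a median of 0.12. Against backgrounds of 6.55 and 7.56 percent, these shares are near those of genes at large. Eif4b, called lower above, is an initiation factor counted in the TOP list and not among the 29. The TOP list also holds Eif3e, Eif3f, Eif3h and Eif3l, all below 0 and not called. The absence of lower calls and the median above 0 therefore hold for this list and not for all initiation factors. Among regulators of mTOR, MYC and p53 signalling, 6 of 27 rose and 2 fell. Myc, which drives ribosome production genes, rose by 2.05 (deposited edgeR adjusted p = 1.43e-23), and the mTORC1 inhibitors Sesn2, Ddit4 and Sesn1 rose by 1.67, 0.62 and 0.60. Mdm2 and Mxd1 rose by 0.41 and 0.56, and Mxi1 and Tia1 fell by 0.62 and 0.76. In the ventilated knockouts against WT_VILI, Myc was higher by 1.103 in the high-injury group (deposited edgeR adjusted p = 0.00046), and Sesn1 was called lower at -0.74 and -0.97 in the low-injury and high-injury groups.

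In KO_noVILI against WT_noVILI, Mycn, a MYC family gene below the minimum, was called higher at 1.33 (deposited edgeR adjusted p = 0.0210).

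Other housekeeping complexes gave a further scale. In WT_VILI against WT_noVILI the median was -0.05 for 64 mitochondrial ribosomal protein genes, with 1 lower (Mrpl24 at -0.57), -0.03 for 40 respiratory chain genes and 0.04 for 14 proteasome genes, both with 0 called by edgeR. In KO_VILIhigh against WT_VILI the respiratory chain and proteasome medians were 0.23 and 0.22, near the 0.22 of the cytosolic ribosomal proteins. In KO_VILIlow against WT_VILI they were 0.18 and 0.10, beside 0.11 for the cytosolic ribosomal proteins. Mitochondrial ribosomal protein genes had lower medians, 0.06 in KO_VILIlow and 0.09 in KO_VILIhigh against WT_VILI. These medians were not tested against each other.

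**Figure D5:**
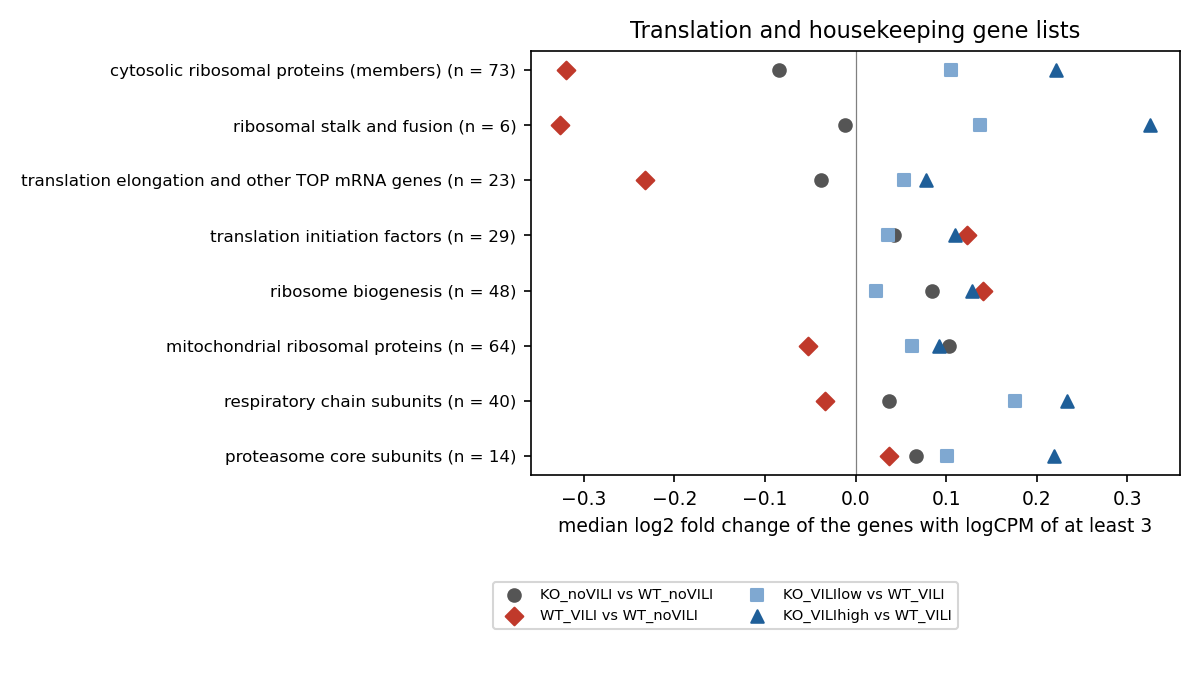
Median log2 fold change (horizontal axis) of the genes above the expression minimum in the members and 7 other lists, with 1 marker for each of the authors' 4 deposited comparisons. The members, the stalk and fusion genes and the TOP list have the lowest medians in WT_VILI against WT_noVILI (-0.32, -0.33 and -0.23). The lists of ribosome biogenesis and of initiation factors are above 0, while the TOP list also holds some initiation factors, among them Eif4b.

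Marker genes of several cell types moved between the same groups. The 10 neutrophil markers summed to 158 and 167 CPM in the unventilated wild type and knockout groups and to 636, 836 and 1136 CPM in the ventilated wild type, low-injury and high-injury groups, with 10 of 10 called higher in WT_VILI against WT_noVILI. Red blood cell markers (7 of 10 in the tables) stood at 4014, 6559, 1064, 3556 and 3223 CPM in WT_noVILI, KO_noVILI, WT_VILI, KO_VILIlow and KO_VILIhigh, lowest in WT_VILI as the members were. The 10 B cell markers stood at 217, 79.4, 137, 46.1 and 132 CPM in the same order, with 10 lower in KO_noVILI and 9 lower in KO_VILIlow against their wild type groups and 0 in KO_VILIhigh. T cell markers ranged from 148 to 231 CPM and cardiac muscle markers from 298 to 1219 CPM, the latter with 8 of 10 lower in KO_noVILI and 9 of 10 higher in KO_VILIlow. Lung identity was clear from the alveolar type 2, alveolar type 1 and endothelial markers, at 25290 to 30150, 6705 to 7842 and 4694 to 5922 CPM. Markers under 0.5 CPM were 2 of the neutrophil list in WT_noVILI, 1 cardiac in KO_noVILI and 1 red blood cell in KO_VILIhigh. The part of these cell types in the ribosomal protein differences was not tested.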

How the data were processed

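Whole lung RNA of 5 groups was sequenced, with libraries made with a TruSeq RNA kit per the labels' protocols. Per the submitters' processing notes, the authors used Bowtie 1.1.2, the mouse build mm9, R 3.0.1 and edgeR (version not given in the sources used here). The authors deposited 4 tables, headed logFC, logCPM, PValue and FDR, per the file headers. They were read as log2 fold changes, the log2 mean CPM over both groups, and the p-value and adjusted p-value of the authors' edgeR test. Counting, filters and test settings are not given in the sources used here. Depth per library is unknown. The authors' deposited fold change was exactly 0 for 53, 45, 80 and 65 genes above the minimum, among them Rps21, Rpl29 and Rpl36a in 1 table each, and are not read as no difference.

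The labels list WT_noVILI under all files, but the reference level of both ventilated knockout tables was nearest to WT_VILI (median absolute log2 difference 0.0491 and 0.0450, against 0.205 and 0.203 from WT_noVILI over 10562 genes), and they were read so. Group levels in CPM were rebuilt from fold change and mean, and averaged where a group is in several tables. Calls used the deposited adjusted p at 0.05. An approximate SE was taken as fold change over the normal quantile that its p corresponds to, or the median of 200 genes of like abundance where p was above 0.9. In the 5 derived comparisons fold changes were added or subtracted, variances summed, and Benjamini-Hochberg adjustment made over genes with log2 CPM of at least 1. In 3 of them a shared group adds variance that cancels in truth, which makes them conservative. The procedure was tested on simulated data: of 200 genes changed by 1.5 log2, 57.5 to 80.5 percent were recovered over 13305 genes in the 5 derived comparisons, with 0 to 6.33 percent of calls false.

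Members and lists were chosen with earlier results of these data known. The text names members chosen by role, all called members of a direction or, above 10, the 8 with the smallest p, the highest and lowest member of each deposited comparison, the 3 most abundant members, those at the expression minimum or at a fold change of exactly 0, and up to 4 called genes per direction from each companion list. Rps18, Rps23, Rps25, Rpl7l1, Rpl15, Rpl27a, Rpl41, Mdm2, Mxd1, Npw and the X-linked members fall outside it and were chosen after their values were seen. Some genes counted in the totals are not reported here by name. Replicates are given only in the design text, and p-values measure only their spread. Sequences and gene order are from RefSeq (GRCm38.p6), with no other coordinates taken from that build. Computations ran under Python 3.11.15 with pandas 2.3.3, numpy 2.4.6 and scipy 1.17.1, and figures were drawn with matplotlib 3.10.9.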

Additional observations from a re-analysis of the deposited data

How the results depend on the processing

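No paired analysis was possible because the tables hold 0 columns of values per library, and for the same reason no replicate could be left out in turn. Of 102 alternative counts of called members, 95 were within 1.5 times the value reported. Most of the 102 set 0 beside a reported 0, among them all counts of members called higher and all of the derived comparisons. The 7 that moved were all counts of members called lower in the authors' 4 comparisons. All 34 alternative medians kept their sign and moved by less than the median approximate SE of a member. The count of 13 members lower in WT_VILI against WT_noVILI was 4 at an adjusted p of 0.01, 20 at 0.10 and 0 with Bonferroni adjustment. Bonferroni adjustment also left 0 members lower in KO_VILIhigh against WT_VILI, where Rps3a1 was the 1 reported. An alternative chosen after the data were seen, leaving out Rps2 and Rps3a1, gave 0 lower members in KO_noVILI against WT_noVILI, 0 in KO_VILIlow and 0 in KO_VILIhigh against WT_VILI. The depth is unknown, and the design text gives 2 libraries a group. The members' median log2 fold change was -0.32 in WT_VILI against WT_noVILI, where the median approximate SE of a single member was 0.15. Against WT_VILI it was 0.11 in KO_VILIlow (SE 0.19) and 0.22 in KO_VILIhigh (SE 0.23). These SEs are of single genes and do not measure the spread of a median over members.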
